A study of Homo sapiens with 7 samples.

Results

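The sites described here are places on the genome of THP-1 cells where the vitamin D receptor (VDR) gave a peak in both hormone-treated lists used and in some, but not all, of the solvent-treated lists. They are called partly shared sites. They were selected on the presence of peaks in 5 libraries: peaks sharing at least 1 bp were merged into sites over 1,25D replicates 1 and 3 and EtOH replicates 1, 2 and 3, and a site was kept when both 1,25D lists and exactly 1 or 2 of the 3 EtOH lists held a peak. This gave 929 of 50849 merged sites (1.83%), of which 548 were in 1 EtOH list and 381 in 2. The same 5 lists gave 1204 sites in both 1,25D lists and no EtOH list, called 1,25D-only below, and 613 sites in all 5 lists.

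VDR is a nuclear receptor that binds DNA mostly as a dimer with the retinoid X receptor, at pairs of short half-sites, and that switches its partner proteins from corepressors to coactivators when its hormone binds. The hormone is 1α,25-dihydroxyvitamin D3, 1,25D below. In monocytes and macrophages it is known for raising antimicrobial and differentiation genes. VDR can occupy some of its sites without hormone, and ligand generally adds sites and strengthens others.

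THP-1 is a line from a human acute monocytic leukaemia. Cells were given 100 nM 1,25D for 8 h, or the solvent, 0.1% ethanol (EtOH), for the same time, and chromatin was immunoprecipitated with an antibody against VDR by ChIPmentation, in which a transposase adds sequencing adapters to the captured DNA. There were 3 libraries per treatment and 1 input library, which was not analysed here; separate cultures are not stated in the labels, so the spread between libraries may be technical. Each list gives every peak its own fold enrichment over background and p-value, both computed by the authors, and the folds below are these values, taken as the highest of a list at a site.

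The 5 lists were compared from chromosome 1 through chromosomes 10 to 22 and 2 to 4, and up to position 90175161 of chromosome 5, which is where the list of 1,25D replicate 3 stops as used here. In that span 1,25D replicates 1 and 3 held 9434 and 8620 peaks, and EtOH replicates 1, 2 and 3 held 9249, 21369 and 10390. The list of 1,25D replicate 2 was not part of the choice. It stops at position 50293713 of chromosome 16, and over its span it served as a library that had not chosen the sites. Read counts are not in the lists, so depth is unknown, and a missing peak means only that none passed the caller's threshold. Positions are as listed, in hg19, and no gene names were attached, because gene positions of that build were not used here.

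A hormone site seen in 2 libraries was often seen in EtOH as well. Of the 2746 sites in both 1,25D lists, 56.2% were in at least 1 EtOH list (95% exact binomial interval 54.3% to 58.0%) and 33.8% were partly shared (32.1% to 35.6%). Of the 12313 sites in 1 of the 2 lists, 8.01% were in an EtOH list (7.53% to 8.50%) and 7.67% in exactly 1 or 2. The intervals in this text cover counting error only. The share was alike in separate parts of the genome, with 451 partly shared of 1329 sites (33.9%, 31.4% to 36.6%) in the span that 1,25D replicate 2 covers and 478 of 1417 (33.7%, 31.3% to 36.3%) in the rest.

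The 3 EtOH libraries did not contribute equally. EtOH replicate 1 held a peak at 263 of the 929 sites (28.3%), EtOH replicate 2 at 528 (56.8%) and EtOH replicate 3 at 519 (55.9%). These peaks were 2.95% of the list of EtOH replicate 1, 2.63% of that of EtOH replicate 2 and 5.26% of that of EtOH replicate 3. EtOH replicate 3 thus reached about as many of the sites as EtOH replicate 2 with a much shorter list. The highest p in the list of EtOH replicate 1 was 0.00431, against 0.00991 and 0.0099 in EtOH replicates 2 and 3, so its list ends at a lower p. With the lower of these limits applied to every list, 892 of the 929 sites stayed partly shared, 27 were left with no EtOH peak and 10 were missing from a 1,25D list.

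**Figure D1:**
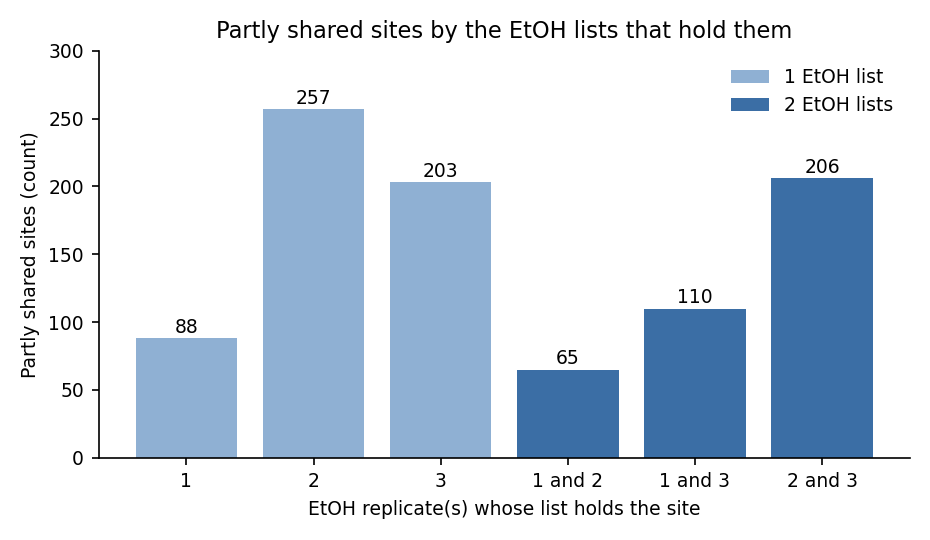
The number of partly shared sites (vertical axis, count) for each set of EtOH replicates whose lists hold them (horizontal axis), in light blue for 1 EtOH list and dark blue for 2. The set of EtOH replicate 2 alone was the most frequent, with 257 sites, and EtOH replicates 1 and 2 together the rarest, with 65.

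By pattern, 88 sites were in EtOH replicate 1 alone, 257 in EtOH replicate 2 alone and 203 in EtOH replicate 3 alone. Another 65 were in EtOH replicates 1 and 2, 110 in 1 and 3, and 206 in 2 and 3. Sites that included EtOH replicate 3 with another list were the stronger ones after hormone: the median of the mean 1,25D fold was 6.52 for replicates 1 and 3 and 6.61 for 2 and 3, against 4.55 for 1 and 2. For sites in 1 EtOH list it was 5.57, 5.36 and 5.51 for EtOH replicates 1, 2 and 3. These folds come from lists that chose the sites and are given as a description.

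The partly shared sites had middling to high folds after hormone and lower listed folds in EtOH. In 1,25D replicate 1 their median fold was 5.41 (quartiles 4.21 and 7.81, range 2.22 to 30.7) and in 1,25D replicate 3 it was 5.96 (4.44 and 8.48, range 2.12 to 31.1). Where an EtOH list held a peak, the median fold was 4.14 in EtOH replicate 1 (range 2.16 to 7.76), 3.86 in EtOH replicate 2 (2.27 to 7.61) and 3.63 in EtOH replicate 3 (1.93 to 7.88). No EtOH peak at these sites reached a fold of 10, whereas 113 and 158 of the 929 did so in 1,25D replicates 1 and 3. Over the whole span, 74, 87 and 75 peaks did so in EtOH replicates 1, 2 and 3. The counts in 1,25D replicates 1 and 3 were 413 and 522. Sites in all 5 lists held all of these EtOH peaks, so the rule left out every EtOH fold of 10 or more. At the partly shared sites the ranges of the treatments overlapped below a fold of 8, and above it there were 1,25D values only.

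**Figure D2:**
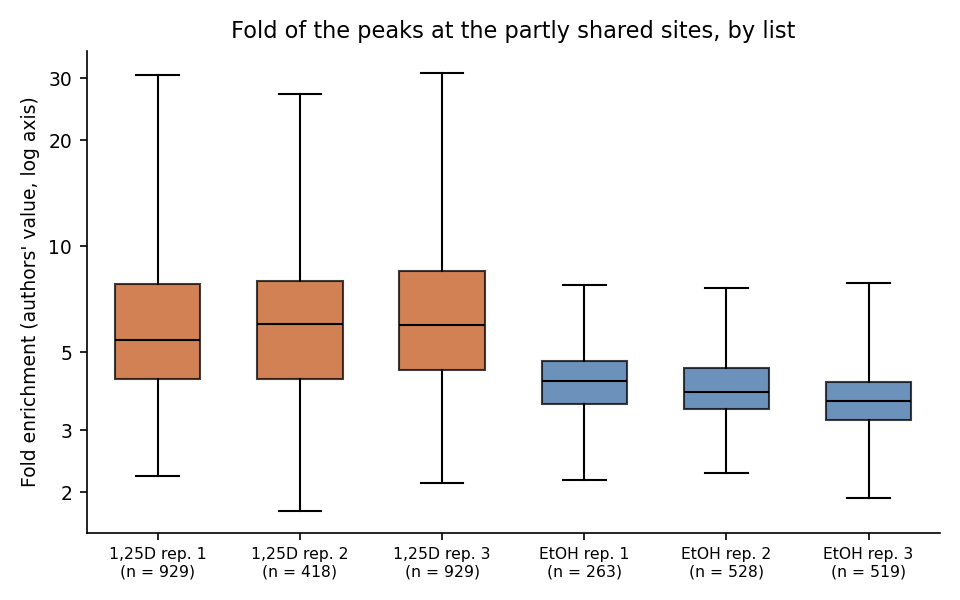
The authors' fold enrichment (vertical axis, log scale) of the peaks at the partly shared sites in each of the 6 lists, 1,25D in orange and EtOH in blue. Boxes show the median and quartiles, whiskers the lowest and highest value, and n the sites with a peak in that list; EtOH folds end below 8, while 1,25D folds extend to 30.7, 27.1 and 31.1 in replicates 1, 2 and 3.

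Ranked within its own list, a partly shared site stood well up among the 1,25D peaks, at a median percentile of 87.3 in replicate 1 and 84.1 in replicate 3. The 1,25D-only sites stood at 78.1 and 75.2, and the sites in all 5 lists at 95.4 and 94.4. All of these classes had to be in both 1,25D lists, so a high rank is not particular to partly shared sites. In the EtOH lists that held them, the sites had median percentiles of 68.8, 79.6 and 82.9 in EtOH replicates 1, 2 and 3. Counted peak by peak, since a site can hold several, the EtOH percentiles were 65.5, 75.7 and 82.1 at partly shared sites. EtOH peaks with no 1,25D counterpart were lower, at 47.6, 49.4 and 46.8, and EtOH peaks at sites in all 5 lists were higher, at 94.99, 97.7 and 96.3. The authors' p followed the same order: its median at partly shared sites was 7.41e-06, 3.26e-05 and 0.000117 in EtOH replicates 1, 2 and 3, and at EtOH peaks without a 1,25D counterpart it was 5.45e-05, 0.000104 and 0.000972. The peaks that made these sites partly shared were thus stronger than the common run of their own lists and weaker than those at sites in all 5.

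Site by site, the 1,25D folds mostly lay above the EtOH folds. At 665 of the 929 sites (71.6%) both 1,25D folds were higher than every EtOH fold listed. At 53 (5.71%) both were lower than every one, and at 211 they overlapped. Both were lower at 9 of the 613 sites in all 5 lists (1.47%). The share with both 1,25D folds higher was 70.2% over all 1542 sites in both 1,25D lists and an EtOH list, which include the 929. At the sites in all 5 lists alone it was 68.0%, so in this share the partly shared sites were close to background. It was 75.7% at sites in 1 EtOH list and 65.6% at sites in 2. Each further EtOH list adds a fold to the comparison, so these shares are not equally strict. The ratio of the mean EtOH fold to the mean 1,25D fold had a median of 0.665 (quartiles 0.473 and 0.863), against 0.620 at the sites in all 5 lists. It leaves out the EtOH lists with no peak, so it gives only the listed side of EtOH. Folds come from separately processed lists, and no test was made between them.

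Membership did not simply track hormone strength. Among sites in both 1,25D lists, the partly shared part was 29.4% at a mean 1,25D fold under 4, 34.9% at 5 to 6, 42.6% at 8 to 12 and 23.8% at 12 or more. The sites on either side of them changed in 1 direction: the 1,25D-only part was 65% under 4, 52.7% at 5 to 6, 17.5% at 8 to 12 and 2.82% at 12 or more, and the part in all 5 lists was 5.60%, 12.3%, 39.8% and 73.4%. Partly shared sites were therefore most frequent in the range where 1,25D-only sites gave way to sites in all 5 lists. Even so, 76 of the 319 sites with a mean fold of 12 or more were partly shared, and 9 more were in no EtOH list.

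**Figure D3:**
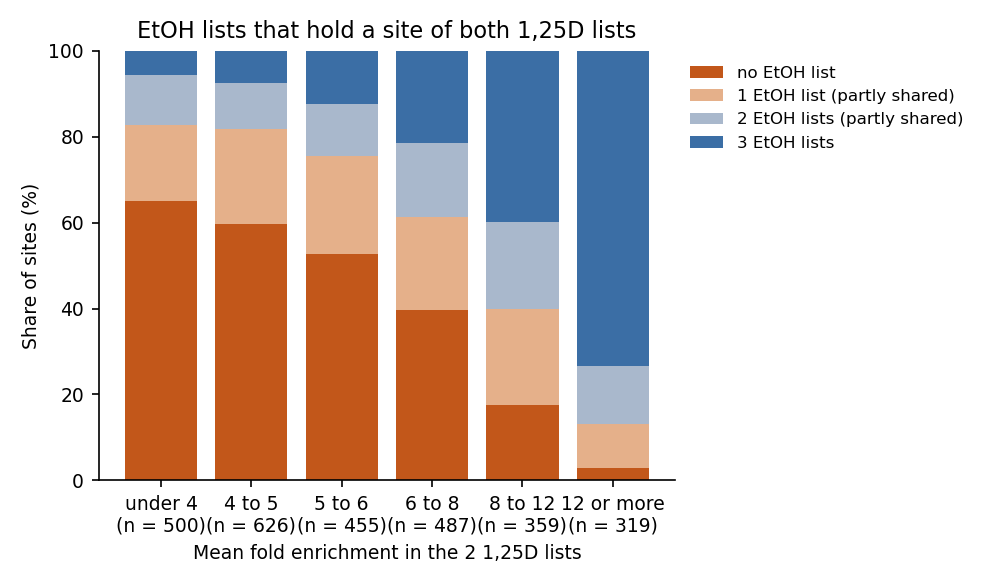
The share (vertical axis, %) of the sites in both 1,25D lists that were in 0, 1, 2 or 3 EtOH lists, in bins of the mean 1,25D fold (horizontal axis, with the number of sites per bin). The 1 and 2 EtOH list parts, which together are the partly shared sites, are widest at a fold of 8 to 12 (42.6%), while the 3 EtOH list part reaches 73.4% at 12 or more.

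Within the partly shared sites, the EtOH fold rose only weakly with the 1,25D fold. Over the 929 sites Spearman's rho between the mean EtOH and mean 1,25D fold was 0.20, whereas between 1,25D replicates 1 and 3 it was 0.72. Between pairs of EtOH lists it was 0.15 to 0.16, over 65 to 206 sites. All of these sites share their libraries, and a fold enters only above each caller's threshold, so these are descriptions of truncated values. The sites that follow show how wide the gap was at the top.

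The site that ranked highest in the 1,25D lists was on chromosome 10 at 6969323 to 6970074. Its fold was 30.7 and 31.1 in 1,25D replicates 1 and 3, against 5.54 and 5.10 in EtOH replicates 2 and 3, and EtOH replicate 1 had no peak there. The library that had not chosen it, 1,25D replicate 2, gave it 27.1. All 1,25D values were thus several times every listed EtOH value.

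Second in rank stood chromosome 2 at 111717451 to 111718150, whose folds were 27.9 and 28.1 in 1,25D replicates 1 and 3 against 2.95 and 2.71 in EtOH replicates 2 and 3. Its ratio of EtOH to 1,25D fold, 0.101, was the lowest of all 929 sites. On chromosome 18 the site at 61604185 to 61604845 had 24.6 and 30.7 in the 1,25D lists and a single EtOH peak, of 4.84 in EtOH replicate 2. A further site on chromosome 18, at 22906455 to 22907118, had 26.4 and 25.3 after 1,25D, with 4.76 in EtOH replicate 1 and 7.53 in EtOH replicate 3. The listed EtOH folds were far below the 1,25D folds at each of these sites, which were picked for high 1,25D folds. EtOH replicate 1 lacked a peak at the first, EtOH replicates 1 and 3 at the second and EtOH replicate 2 at the last.

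A second site of chromosome 2, at 145461396 to 145462023, had folds of 22.8 and 26.1 in 1,25D replicates 1 and 3, and 4.76 and 3.52 in EtOH replicates 1 and 3. Chromosome 3 held a site at 26348339 to 26349265 with 19.6 and 23.4 after 1,25D and with 6.29 and 6.83 in EtOH replicates 2 and 3, which was the highest mean EtOH fold among the 10. On chromosome 12, at 93569373 to 93570128, the folds were 20.4, 22.4 and 22.8 in 1,25D replicates 1, 2 and 3, and 4.13 in EtOH replicate 2 alone. Here the library outside the choice fell between both libraries that made it.

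On chromosome 13, at 77324047 to 77324718, the folds were 23.4, 15.7 and 20.7 in 1,25D replicates 1, 2 and 3, against 3.21 and 4.72 in EtOH replicates 2 and 3. On chromosome 10, at 131681794 to 131682438, they were 16.8, 18.5 and 25.0 in the 1,25D replicates, against 4.84 and 5.44 in EtOH replicates 2 and 3. The last of the 10 was on chromosome 2 at 224735785 to 224736319, with 17.4 and 23.9 in 1,25D replicates 1 and 3 and with 4.17 and 3.36 in EtOH replicates 1 and 3. The folds of 1,25D replicates 1 and 3 differed by at most 1.48 times at the 10 sites, and none of the 10 had an EtOH value above 7.53.

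**Figure D4:**
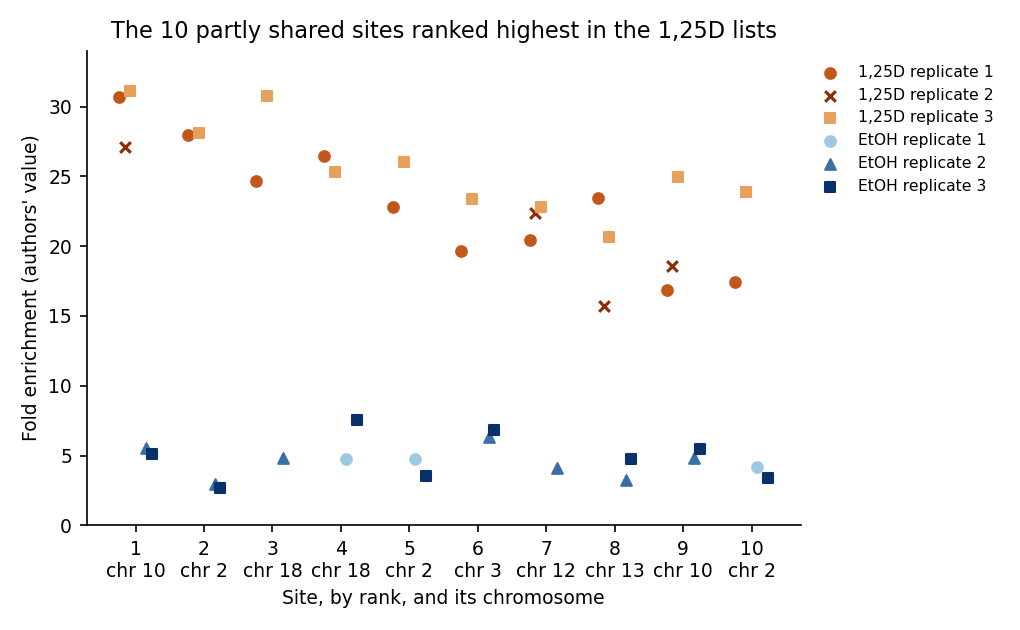
The authors' fold enrichment (vertical axis) at the 10 partly shared sites with the highest mean within-list percentile in 1,25D replicates 1 and 3 (horizontal axis, in rank order with the chromosome), 1 point per list that holds a peak. Orange and brown 1,25D points lie between 15.7 and 31.1 and blue EtOH points between 2.71 and 7.53; 1,25D replicate 2 is drawn only for the 4 sites within its span.

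The strongest sites of the other patterns, also picked by their 1,25D folds, had listed EtOH folds far below them too. Among sites in EtOH replicate 1 alone, the leading one was on chromosome 5 at 56501013 to 56501620, with folds of 27.6 and 17.1 in 1,25D replicates 1 and 3 and 4.17 in EtOH replicate 1. Second in this pattern came chromosome 10 at 75666242 to 75666796, where the folds were 15.03, 14.2 and 17.1 in 1,25D replicates 1, 2 and 3 and 4.72 in EtOH replicate 1. The spread between the 1,25D libraries at the first of these was wide, yet both values were over 4 times the EtOH one.

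For EtOH replicates 1 and 2 together, chromosome 20 at 39636321 to 39637355 had 20.7 and 19.1 after 1,25D and 4.19 and 4.40 in EtOH. Chromosome 2 at 12016510 to 12017163 had 18.1 and 18.7 after 1,25D and 5.32 and 5.89 in EtOH. For EtOH replicate 3 alone, chromosome 3 at 186745606 to 186746316 had 18.8 and 21.4 after 1,25D and 3.99 in EtOH. The 1,25D folds were close to each other at these 3 sites, as were the listed EtOH folds on chromosomes 20 and 2. EtOH replicate 3 had no peak at those 2 sites, and EtOH replicates 1 and 2 had none at the site on chromosome 3. The listed folds of the treatments did not overlap, but the sites were picked for high 1,25D folds. Both 1,25D folds were higher at 70.2% of all sites in both 1,25D lists and an EtOH list.

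Chromosome 21 at 22423245 to 22424077 had 18.0 and 17.8 in 1,25D replicates 1 and 3 and 3.36 in EtOH replicate 3. Chromosome 11 at 44658934 to 44659592, which had one of the 5 lowest ratios, had 17.4, 13.2 and 20.9 in 1,25D replicates 1, 2 and 3 and 3.15 in EtOH replicate 2. In all, 93 sites had a fold of 10 or more in both 1,25D lists, 35 of them 15 or more and 7 of them 20 or more. EtOH replicate 3 held 71 of the 93, EtOH replicate 2 held 43 and EtOH replicate 1 held 32. Over all 929 sites these lists held 55.9%, 56.8% and 28.3%. At 66 of the 93 no EtOH fold reached 5, and at 27 an EtOH fold did. Over all 929 sites, a fold of 5 or more was listed at 48, 75 and 32 sites in EtOH replicates 3, 2 and 1. The median of the mean EtOH fold was 4.11 at the 93 sites and 3.78 over all 929, so listed EtOH folds were somewhat higher at the 93.

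At the other end, 107 of the 929 sites (11.5%) had a higher mean fold in EtOH than after 1,25D, against 9.46% of the sites in all 5 lists. The highest ratio was on chromosome 10 at 126989259 to 126989828, with 3.06, 3.20 and 2.42 in 1,25D replicates 1, 2 and 3 and 4.71 in EtOH replicate 2. Chromosome 11 at 74583561 to 74583972 had 5.30 and 2.40 in 1,25D replicates 1 and 3, no peak in 1,25D replicate 2, and 6.23 in EtOH replicate 2. Chromosome 4 at 6233833 to 6234651 had 3.75 and 2.30 after 1,25D and 4.71 in EtOH replicate 2. The 1,25D folds of these 3 sites were at most 5.30, and the EtOH side rested on EtOH replicate 2 alone.

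The remaining sites of this kind were on chromosome 10 at 20116079 to 20116359, with 3.61, 5.59 and 3.45 in 1,25D replicates 1, 2 and 3 and 5.36 in EtOH replicate 1, and on chromosome 15 at 68801931 to 68802344, with 4.13, 3.76 and 3.55 in 1,25D replicates 1, 2 and 3 and 5.82 in EtOH replicate 3. At the first of them the library outside the choice was above the EtOH value, so the order there depended on the library.

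1,25D replicate 2 gave a view of the same treatment that the choice did not use. Within its span it held a peak at 418 of 451 partly shared sites (92.7%, interval 89.9% to 94.9%), where over all 27596 merged sites of that span it held 7.86%. It held 86.3% of the 577 1,25D-only sites (83.2% to 89.0%) and 298 of the 301 sites in all 5 lists (interval 97.1% to 99.8%). Sites in 1 and in 2 EtOH lists were not alike: 241 of 272 (88.6%, 84.2% to 92.1%) and 177 of 179 (98.9%, 96.0% to 99.9%). Those in 1 EtOH list were thus near the 1,25D-only sites and those in 2 near the sites in all 5. The sites of a library are not replicates of a treatment, and no p is given.

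The same order held for the fold that 1,25D replicate 2 gave. Its median was 4.95 at 1,25D-only sites, 5.77 at sites in 1 EtOH list, 6.18 at sites in 2 and 9.71 at sites in all 5. At the partly shared sites together it was 6.02 (quartiles 4.18 and 7.94, n = 418), next to 5.41 and 5.96 in the lists that had chosen them. Spearman's rho with 1,25D replicates 1 and 3 was 0.76 and 0.80 over these 418 sites. The fold in 1,25D replicate 2 was above every EtOH fold of the site at 198 of 241 sites in 1 EtOH list (82.2%), 130 of 177 in 2 (73.4%) and 216 of 298 in all 5 lists (72.5%). The number of EtOH folds to exceed grows from 1 to 3 over these classes, so the shares are not equally strict.

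Part of this recovery went with peak strength. Every one of the 196 partly shared sites of the span with a mean 1,25D fold of 6 or more was in 1,25D replicate 2, as were the 1,25D-only sites at that strength. Below a fold of 4 it held 32 of 50 sites in 1 EtOH list (64%, 49.2% to 77.1%), 26 of 28 in 2 (92.9%, 76.5% to 99.1%) and 108 of 161 1,25D-only sites (67.1%, 59.2% to 74.3%). With a mean fold between 4 and 5 these figures became 84% (73.7% to 91.4%), 100% (88.1% to 100%) and 87.9% (82.4% to 92.2%). At a given weak fold, sites in 1 EtOH list were recovered at a share within the interval of the 1,25D-only sites, while sites in 2 EtOH lists had higher shares; at a fold of 4 to 5 the intervals of sites in 2 EtOH lists and of 1,25D-only sites overlapped.

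**Figure D5:**
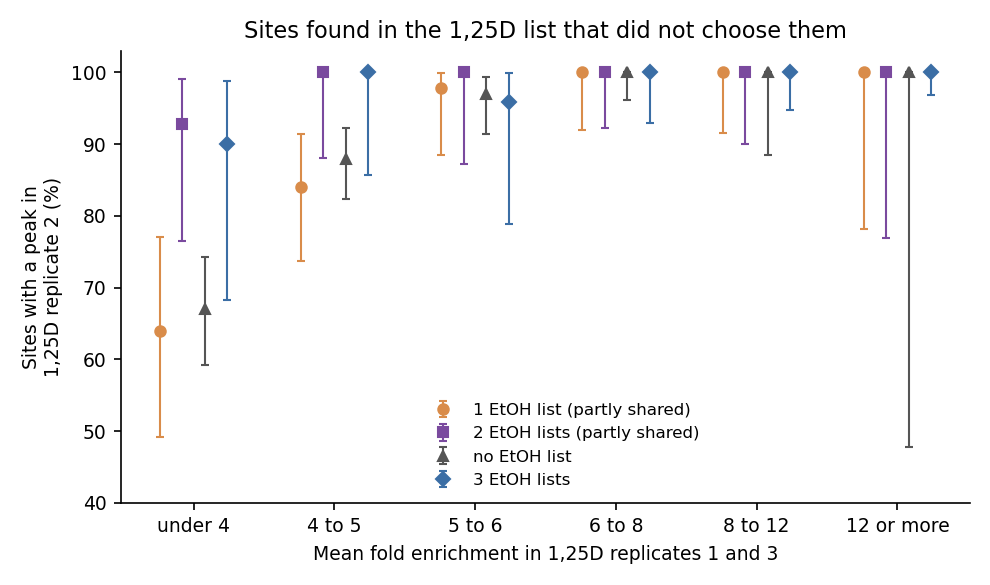
The share of sites with a peak in 1,25D replicate 2 (vertical axis, %, starting at 40) in bins of the mean fold in 1,25D replicates 1 and 3 (horizontal axis). Circles and squares are the partly shared sites in 1 and 2 EtOH lists, triangles the 1,25D-only sites and diamonds the sites in all 5 lists, with 95% exact binomial intervals; under a fold of 4 the squares (92.9%) lie above the circles (64%), and from 6 upwards all are at 100%.

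Peak centres and lengths were compared within the sites. Over 1310 pairs of a site and an EtOH list, the EtOH peak centre was a median of 56.5 bp from the midpoint of the 1,25D centres, and 95.1% of EtOH centres lay within the extent of the 1,25D peaks. The overlap that the rule asks for keeps the centres of such short peaks near each other, so these values are a description. The same distance was 60.5 bp at sites in 1 EtOH list, 52.5 bp at sites in 2 and 62.25 bp at sites in all 5 lists.

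Peaks at these sites had median lengths of 315 bp in 1,25D replicate 1, 393 bp in 1,25D replicate 3 and 199 bp in the EtOH lists. In 1,25D replicate 2, which did not choose them, the peak was a median of 449.5 bp long at partly shared sites, between 379 bp at 1,25D-only sites and 711 bp at sites in all 5 lists. At 115 sites a list had more than 1 peak within the merged site. At 5 sites the 1,25D peaks were joined only through another peak, and 4 EtOH peaks touched no 1,25D peak directly.

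Where an EtOH list had no peak at a partly shared site, it seldom had one next to it. Of the 666 sites missing from EtOH replicate 1, 4.80% had a peak of that list within 1 kb, and the shares were 8.23% of 401 for EtOH replicate 2 and 6.59% of 410 for EtOH replicate 3. At the 1,25D-only sites these shares were 3.24%, 5.65% and 3.65%. A nearby EtOH peak was thus listed somewhat more often beside partly shared than beside 1,25D-only sites in each of the 3 libraries, though rarely in either. In their wider surroundings the classes were similar: within 500 kb there were on average 17.8 single-library EtOH sites around a partly shared site, 17.0 around a 1,25D-only site and 19.0 around a site in all 5 lists.

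The sites were spread over all 18 chromosomes of the span. Chromosome 1 held 146 of them (15.7%, against 23.7% of all merged sites) and chromosome 2 held 11.1% of them (against 10.7%). The merged sites of chromosome 1 were mostly single-library EtOH sites (8345 of 12073). Of its 457 sites in both 1,25D lists, 31.9% were partly shared (27.7% to 36.4%), near the 33.8% over all chromosomes. Chromosome 3 held 84 (9.04%, against 9.38%). Chromosomes 4 and 12 held 70 each (7.53%, against 9.40% and 6.24%). On the gene-rich chromosome 19, 43 of the 126 sites in both 1,25D lists were partly shared (34.1%, 25.9% to 43.1%), close to the 33.8% over all chromosomes. Read as a share of the sites in both 1,25D lists, the extremes were chromosome 18, with 34 of 77 (44.2%, 32.8% to 55.9%), and chromosome 20, with 17 of 81 (20.99%, 12.7% to 31.5%). The intervals of these chromosomes did not overlap, but they were picked as the highest and lowest of 18.

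Few partly shared sites lay close to another. The median distance to the nearest other partly shared site was 523 kb. It was 523 kb from 1,25D-only sites and 540 kb from sites in all 5 lists, so this spacing was not particular to partly shared sites. Of 864 groups formed by joining those within 50 kb of each other, 804 held a single site, 55 held 2 and 5 held 3. The tightest group of 3 was on chromosome 14 at 93169077 to 93191095, with mean 1,25D folds between 4.89 and 15.2, followed by chromosome 16 at 53779544 to 53808526, with 3.47 to 15.2. Within 10 kb of a partly shared site there was another site of both 1,25D lists in 13.1% of cases, against 16.4% for 1,25D-only sites and 11.3% for sites in all 5. Of the 405 windows of 5 Mb that held a site of both 1,25D lists, 348 held at least 1 partly shared site, with a median of 2 in these. The window of chromosome 1 from 40 to 45 Mb held 23 (of 59 sites in both 1,25D lists). Next were chromosome 12 from 50 to 55 Mb and chromosome 19 from 45 to 50 Mb, with 9 each (of 12 and 18).

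At the limits of the choice, the EtOH p and the overlap or gap of peaks were close just inside and outside, while folds could differ widely. Among sites in 1 EtOH list, the one whose EtOH peak had the highest p was on chromosome 12 at 25530275 to 25530773, where the folds were 8.16, 9.97 and 10.7 in 1,25D replicates 1, 2 and 3 and EtOH replicate 3 gave a fold of 2.60 with a p of 0.00825. A site on chromosome 3, at 128323817 to 128324343, was left out because all 3 EtOH lists held it, the weakest of them with a p of 0.00774. The smallest overlap of an EtOH peak with a 1,25D peak was 3 bp, on chromosome 10 at 906083 to 906654. Of the 1,25D-only sites, 26 had an EtOH peak within 100 bp, the nearest 1 bp away, on chromosome 1 at 178143726 to 178144139. The last partly shared site of the span was on chromosome 5 at 88444073 to 88444716, with folds of 4.81 and 4.53 after 1,25D and 4.15 and 3.71 in EtOH replicates 2 and 3. It was followed by a site in all 5 lists at 90174463 to 90175340, with 20.4 and 18.2 after 1,25D and 5.36, 7.61 and 8.23 in EtOH.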

How the data were processed

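The submitters' processing notes name Bowtie 1.1, MACS2 and the build hg19 (GRCh37). The version, control and threshold of MACS2 were not given in the sources used here. The deposited lists hold, per library and not pooled, each peak's position, its fold enrichment (a ratio over background) and its p-value, all as the authors' caller gave them, per the file headers. Incomplete last lines of 3 lists were left out, and 0 columns belonged to other samples. Merging, percentiles of fold within a list and exact binomial intervals were computed with Python 3.11.15, pandas 2.3.3 and SciPy 1.17.1, and the merging was tested on simulated lists. The sites and comparisons were chosen with earlier results of these data known. Presence and folds in the 5 choosing lists are descriptions without a test, and 1,25D replicate 2, which alone stood outside the choice, is 1 library, so no p-value between treatments is given. The text names the 10 sites of highest mean 1,25D percentile, the top 2 of each EtOH pattern, the 5 highest and 5 lowest ratios of EtOH to 1,25D fold, and those nearest the limits; groups, windows and chromosomes were named after their values were seen. The planned gene and motif summaries were not run, because the reference tables at hand are of GRCh38 and positions were not converted. The alternatives tried were a fold of 5 or more, 1 highest p, equal list lengths, 50% overlap, windows at the centres, left-out libraries and chromosome 1, a p of 1e-04 or less, starts counted from 0, and 1,25D replicate 2 in the rule.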

Additional observations from a re-analysis of the deposited data

How the results depend on the processing

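Of 90 recomputed values, 73 stayed within 1.5 times (counts), within the SD between list medians (folds) or within the interval (the recovered share), among them all those with 1 highest p, equal list lengths, 50% overlap, windows at the centres, starts counted from 0, without chromosome 1, and with 1,25D replicate 2 in the rule. With peaks of a fold of 5 or more only, there were 280 partly shared sites (175 in 1 EtOH list and 105 in 2), with median folds of 9.15 after 1,25D and 5.80 in EtOH. The fold limit was not applied to 1,25D replicate 2, which held all (100%) of those in its span. That list already held all 196 of the 929 sites that were in its span with a mean 1,25D fold of 6 or more. The 280 were largely other sites: 92 of the 929 stayed partly shared, 349 lost their EtOH peaks and 488 lost a 1,25D peak. With a p of 1e-04 or less, a setting added after the lists were seen, 241 sites were in 2 EtOH lists, the median folds were 6.42 after 1,25D and 4.30 in EtOH, and 546 of the 929 stayed. Leaving out a library changes the rule itself, since 1 list fewer has to hold or lack the site: the number ranged from 564 (without EtOH replicate 2) to 1508 (without 1,25D replicate 1), sites in 1 EtOH list from 564 to 1039, the median 1,25D fold from 4.53 to 5.84 and the share in 1,25D replicate 2 from 62.4% (without 1,25D replicate 3) to 93.4%. No paired analysis was possible because no result comes from a fit between treatments that a block could enter. Unknown depth limits what a missing EtOH peak can show.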

Other observations

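Sites in only 1 of 1,25D replicates 1 and 3 lie just outside the choice, and 944 of them were also in 1 or 2 EtOH lists. In the span of 1,25D replicate 2, that library held a peak at 161 of 606 such sites (26.6%, 95% exact binomial interval 23.1% to 30.3%) and at 611 of 6201 sites in 1 1,25D list and no EtOH list (9.85%, 9.12% to 10.6%). It held 18 of 321 sites that were in 2 or 3 EtOH lists and in neither 1,25D list (5.61%, 3.36% to 8.72%). The intervals cover counting error only. Lists of the same replicate number were also compared, over sites in 1 1,25D list and 1 EtOH list. Of the 5776 sites in 1,25D replicate 3 and not in 1,25D replicate 1, 192 (3.32%) were in the same-numbered EtOH replicate 3 alone and 73 (1.26%) in EtOH replicate 1 alone. Of the 6537 sites in 1,25D replicate 1 and not in 1,25D replicate 3, 88 (1.35%) were in the same-numbered EtOH replicate 1 alone and 99 (1.51%) in EtOH replicate 3 alone. Within a 1,25D list, the same-numbered EtOH list thus had the higher share for replicate 3 and not for replicate 1. With the EtOH list held fixed, the same-numbered 1,25D list had the higher share for both replicates. For EtOH replicate 1 the shares were 1.35% against 1.26%, and for EtOH replicate 3 they were 3.32% against 1.51%. Same-numbered lists also ended at like values of the caller's p. The highest p was 0.00433 and 0.00431 in replicate 1 of 1,25D and EtOH, and 0.00997 and 0.0099 in replicate 3. Replicate number and list limit therefore cannot be told apart here.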
